A study of Mus musculus with 3 samples.

Results

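CD8 T cells were selected on their own UMI counts in single-cell RNA libraries of tumours grown in mouse bone, and 241 of 28522 kept cells met the rule. A kept cell had 300 or more genes and at most 15% of its UMIs (unique molecular identifiers, each counting 1 captured RNA molecule) from mitochondrially encoded genes. A CD8 T cell also had 1 or more UMIs of Cd3e, Cd3d and Cd3g together, 1 or more of Cd8a and Cd8b1 together, and 0 of Cd4 and of Ncr1, a natural killer (NK) cell receptor gene. It could hold at most 2 UMIs of C1qa, C1qb and C1qc together, which mark macrophages, and at most 3 of Krt8 and Krt18 together, which mark the carcinoma cells. The rule gave 43 CD8 T cells in the Mfn2 library, 81 in the Rhot1 library and 117 in the WT library. The study compared 3 kinds of host. One group carried DMP1-Cre and was Mfn2-/-, another carried DMP1-Cre and was Rhot1-/-, and the third was wild type (WT), for which the labels name no Cre. In all 3, 1000000 LLC1 cells, a mouse Lewis lung carcinoma line, in 10 µL were injected into the right tibia of mice aged 8 weeks, and tumours were taken on day 14. Each genotype is 1 library, a pool in equal parts of tumours from 3 mice, sorted for live cells by exclusion of a viability dye, and no file ties a cell to a mouse. Dmp1-Cre acts in osteocytes, so the deletion is not driven in the CD8 T cells themselves. A difference from WT cannot be assigned to the deleted gene rather than to Cre.

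CD8 T cells recognise peptides on MHC class I through an alpha-beta T cell receptor and the CD8 coreceptor. Activated ones kill target cells by releasing perforin and granzymes and secrete chemokines and interferon gamma. Under lasting antigen exposure in tumours they gain inhibitory receptors such as PD-1, while naive and stem-like memory cells keep the transcription factors TCF1 and LEF1 and the homing receptor CCR7. Mfn2 encodes mitofusin 2, which fuses mitochondrial outer membranes, and Rhot1 encodes Miro1, which ties mitochondria to the transport machinery. The targeted genes had few UMIs in CD8 T cells. Mfn2 had 2 UMIs in Mfn2 tumours, 0 in Rhot1 and 3 in WT, and Rhot1 had 3, 6 and 7 UMIs in the Mfn2, Rhot1 and WT tumours. A 3′ tag can lie outside a deleted part, so these counts check no genotype.

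T cell receptor RNA, which the rule did not use, was present in nearly every chosen cell. A UMI of the T cell receptor constant genes Trac, Trbc1 or Trbc2 was present in 42 of 43 CD8 T cells in Mfn2 tumours, 81 of 81 in Rhot1 and 115 of 117 in WT. The same genes had a UMI in 1.12%, 2.00% and 3.17% of tumour-marker cells (more than 3 keratin UMIs and no Cd3 UMI) of the Mfn2, Rhot1 and WT libraries, and in 0.196%, 1.34% and 0.710% of C1q-high cells (more than 2 C1q UMIs and no Cd3 UMI). NK cells (Ncr1 and no Cd3 UMI) also held 277 Trbc1 and 118 Trbc2 UMIs over the 3 libraries, but 1 Trac UMI. Of 9 gamma-delta T cell markers, 8, 6 and 6 were at 0 in CD8 T cells of the Mfn2, Rhot1 and WT libraries, the constant gene Trdc in all 3, and the list summed to 5, 11 and 19 UMIs. The gamma chain segment Trgv2 had 4 UMIs in 3 CD8 T cells in Mfn2, 7 in 6 in Rhot1 and 26 in 14 in WT. At the edge of the rule, 4 CD8 T cells in Mfn2, 10 in Rhot1 and 19 in WT tumours rested on a single UMI of Cd8a or Cd8b1, and 35, 62 and 87 had 3 or more. Just outside it, 10, 9 and 10 cells with Cd3 and Cd8 UMIs in the Mfn2, Rhot1 and WT libraries had too many keratin UMIs, and 1, 3 and 3 too many C1q UMIs.

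CD8 T cells were shallow beside the carcinoma cells. Their median depth was 2474 UMIs in Mfn2 tumours, 2533 in Rhot1 and 3038 in WT, against 16428, 17095 and 18356 UMIs in tumour-marker cells, and their UMIs summed to 127276, 257113 and 405384. RNA of tumour marker genes was present in them. A list of 10 such genes summed to 7441 CPM (UMIs per 1000000 UMIs of the class) in Mfn2, 7429 in Rhot1 and 7992 in WT. Krt19 was at 0 in all 3 and Timp1 also at 0 in Mfn2. Every CD8 T cell had a UMI of the list, which includes Cd44, S100a6 and Lgals1. No Krt8 or Krt18 UMI was found in 37 of 43 CD8 T cells in Mfn2, 72 of 81 in Rhot1 and 85 of 117 in WT. The part of tumour cell RNA in the sum was not tested. UMIs of macrophage, neutrophil, dendritic cell, stroma, erythroid or B cell markers numbered 10 or more in 3, 2 and 5 CD8 T cells of the Mfn2, Rhot1 and WT libraries, and 1 WT cell held 1325 of the 1386 neutrophil-marker UMIs there. Pairs of libraries shared 20 to 35 barcodes, and no shared barcode was a CD8 T cell in both. With 1 library a genotype there is no test between genotypes. Every interval between libraries covers counting error only, treats UMIs as independent and so is too narrow where few cells hold a gene's UMIs, and says nothing of variation between mice.

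CD8 T cells made up a smaller share of cells in both knockout libraries than in WT, while the intervals of their share of T and NK cells overlapped. Of all kept cells they were 0.436% in Mfn2 tumours (exact 95% binomial interval 0.316 to 0.587), 0.865% in Rhot1 (0.688 to 1.07) and 1.26% in WT (1.04 to 1.51). The ratio to WT was 0.346 (0.244 to 0.490) for Mfn2 and 0.688 (0.519 to 0.911) for Rhot1. Tumour-marker cells were at 54.4% of kept cells in Mfn2, 53.9% in Rhot1 and 45.8% in WT tumours, higher in both knockouts. Among cells with at most 3 keratin UMIs, CD8 T cells were 0.968% in Mfn2, 1.91% in Rhot1 and 2.37% in WT tumours. The ratios to WT were then 0.409 (0.289 to 0.579) and 0.808 (0.610 to 1.07), and the second interval reached 1. Of T and NK cells together they were 43 of 121 (35.5%) in Mfn2, 81 of 217 (37.3%) in Rhot1 and 117 of 382 (30.6%) in WT tumours, with ratios to WT of 1.16 (0.874 to 1.54) and 1.22 (0.969 to 1.53). CD4 T cells, taken by the same rule with Cd4 in place of Cd8, had ratios to WT of 0.365 (0.187 to 0.710) in Mfn2 and 0.416 (0.218 to 0.795) in Rhot1. NK cells, with Ncr1 and no Cd3 UMI, had 0.278 (0.164 to 0.470) and 0.814 (0.561 to 1.18). The other T cells, with Cd3 UMIs but outside both the CD8 and the CD4 rule, numbered 48 in Mfn2, 73 in Rhot1 and 173 in WT tumours and had ratios of 0.261 (0.190 to 0.359) and 0.419 (0.319 to 0.550). They are part of the T and NK total that the CD8 share is taken of. The ratio of CD8 to CD4 T cell numbers was 3.58 in Mfn2, 6.23 in Rhot1 and 3.77 in WT tumours.

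**Figure D1:**
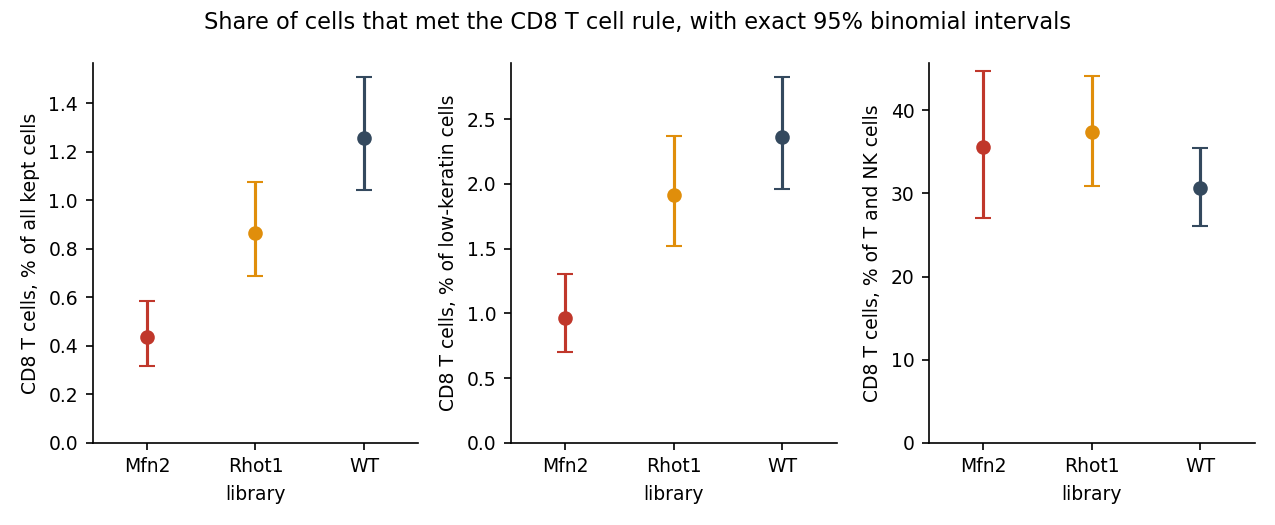
Share of cells that met the CD8 T cell rule in each library, in percent, of all kept cells (left), of cells with at most 3 keratin UMIs (middle) and of T and NK cells (right). Points are 1 library each and bars are exact 95% binomial intervals. The Mfn2 point is the lowest in the left and middle panels, at 0.436% and 0.968%, and in the right panel all 3 intervals overlap.

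A gene can be missed in a shallow cell, and the shares were also taken after barcodes were thinned to 2000 UMIs. Barcodes with fewer UMIs, CD8 T cells among them, were left out. CD8 T cells were then 33 of 8352 barcodes in Mfn2 tumours (0.395%), 49 of 8162 in Rhot1 (0.600%) and 85 of 7997 in WT (1.06%). Both knockout shares stayed below WT. For background, tumour-marker and C1q-high cells were here taken whether or not they had a Cd3 UMI, unlike elsewhere. A Cd3 and a Cd8 UMI together were found in 0.184%, 0.176% and 0.230% of such tumour-marker cells of the Mfn2, Rhot1 and WT libraries. Among such C1q-high cells they were found in 0 of 1024 (exact upper limit 0.360%), 0.0953% and 0.175%. The share among C1q-high cells was below that of CD8 T cells among kept cells in each library. In Mfn2 its upper limit lay within the CD8 interval (0.316 to 0.587). C1q-high cells without a Cd3 UMI had median depths of 4606, 5358 and 5524 UMIs, deeper than CD8 T cells and shallower than tumour-marker cells.

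Most CD8 T cells carried RNA of killing genes in every library. Gzmb (granzyme B) or Prf1 (perforin, the pore former) had a UMI in 90.7% of CD8 T cells in Mfn2 tumours (77.9 to 97.4), 75.3% in Rhot1 (64.5 to 84.2) and 76.1% in WT (67.3 to 83.5). In tumour-marker and C1q-high cells the share was between 0.196% and 2.21%. With cells thinned to 1500 UMIs the shares were 75.7% of 37 cells in Mfn2, 64.9% of 74 in Rhot1 and 67.0% of 103 in WT. Cxcr6, a chemokine receptor of tissue-dwelling effector cells, had a UMI in 67.4% of CD8 T cells in Mfn2, 49.4% in Rhot1 and 53.8% in WT tumours. Pdcd1, which encodes the inhibitory receptor PD-1, had one in 46.5% of CD8 T cells in Mfn2, 40.7% in Rhot1 and 53.0% in WT tumours. Both genes were at 0.305% or below in tumour-marker and C1q-high cells. Thinned to 1500 UMIs, the shares were 48.6%, 37.8% and 35.0% for Cxcr6 and 40.5%, 32.4% and 34.0% for Pdcd1 in the Mfn2, Rhot1 and WT libraries, so for Pdcd1 the order of Mfn2 and WT turned. The Mfn2 interval overlapped the WT interval for each of these 3 measures, thinned or not.

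**Figure D2:**
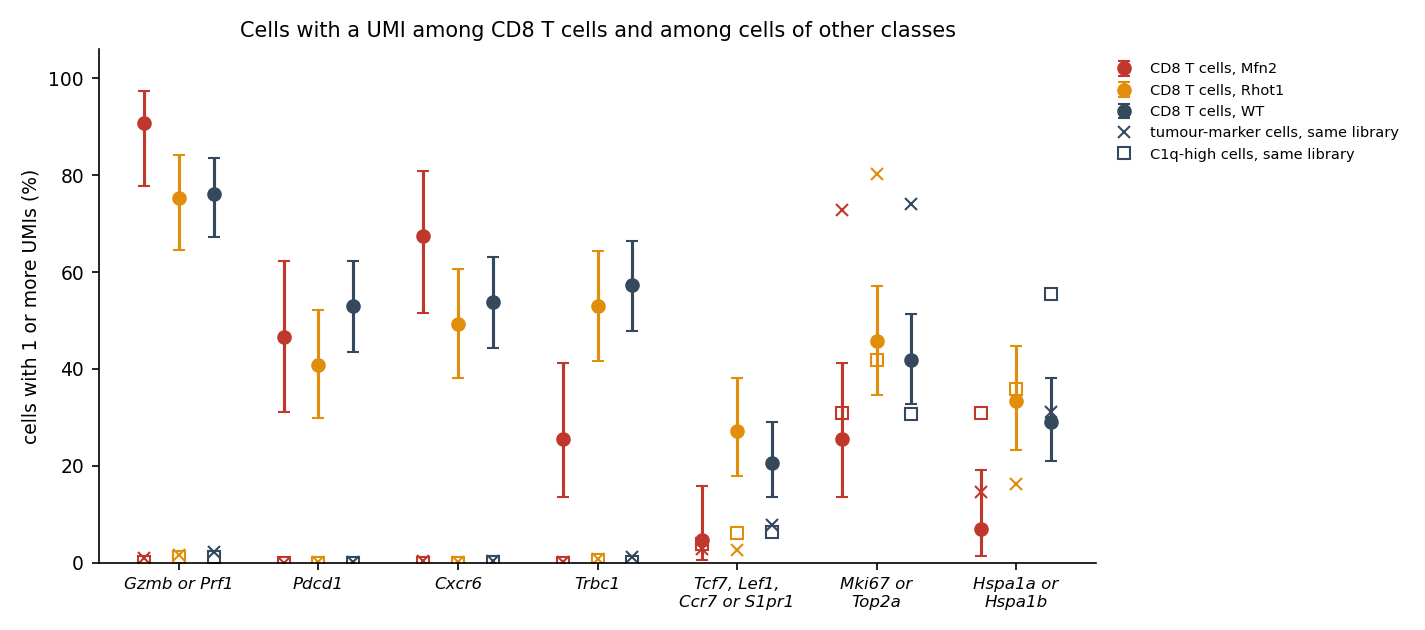
Percentage of cells with 1 or more UMIs of the genes named on the horizontal axis. Filled points are CD8 T cells of each library with exact 95% binomial intervals, crosses are tumour-marker cells and open squares are C1q-high cells of the same library. Killing, Pdcd1, Cxcr6 and Trbc1 RNA stands far above the tumour-marker and C1q-high cells shown. Mki67 or Top2a and Hspa1a or Hspa1b RNA does not. NK cells, which also carry killing and Trbc1 RNA, and CD4 T cells are not shown.

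Across genotypes, levels were compared as summed CPM. A gene was compared for size only where the mean of the 2 libraries was 50 CPM or more, and it was counted as higher or lower at 2-fold or more on the scale log2((CPM + 5) / (CPM + 5)), which understates the change of low genes. In the Mfn2 over WT comparison 105 of 3040 genes (3.45%) were higher and 105 (3.45%) lower, with a median log2 ratio of 0.02 over all genes. In the Rhot1 over WT comparison 40 of 3006 (1.33%) were higher and 49 (1.63%) lower, with a median of -0.00. Counting intervals of the ratio excluded 1 for 79 of the genes higher and 64 of those lower in Mfn2, and for 40 and 48 in Rhot1. The Mfn2 sum was the smallest, at 127276 UMIs, so its larger counts are not read as a larger effect. Both comparisons share the WT library. Ratios quoted below are plain ratios of CPM with exact 95% counting intervals.

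Perforin RNA stood higher in CD8 T cells of Mfn2 tumours than of WT tumours, and the other killing genes past the filter on low levels lay within 2-fold of WT there. Of 20 genes on a list of cytotoxic effectors, 14 passed the filter for Mfn2 over WT, 1 of them was 2-fold higher and 0 were lower, and 13 had a ratio above 1, with a median log2 ratio of 0.51 beside 0.02 over all genes. For Rhot1 over WT, 15 passed, 2 were 2-fold higher and 0 lower, and the median was 0.01 beside -0.00. Prf1 stood at 1194 CPM in Mfn2, 564 in Rhot1 and 392 in WT tumours. The Mfn2 ratio to WT was 3.04 (2.42 to 3.83) and the Rhot1 ratio 1.44 (1.14 to 1.81). A single Mfn2 cell held 41 of the 152 Prf1 UMIs, and without the top cell of each library, the one with most UMIs of the gene, the Mfn2 ratio was 2.51. Prf1 had a UMI in 60.5% of CD8 T cells in Mfn2, 48.1% in Rhot1 and 47.9% in WT tumours, so the levels stood further apart than the shares of cells. Gzmb was ordered alike, at 1147 CPM in Mfn2, 937 in Rhot1 and 757 in WT tumours, with ratios of 1.51 (1.24 to 1.85) in Mfn2 and 1.24 (1.04 to 1.47) in Rhot1. Cst7, which encodes cystatin F, a regulator of granule proteases, stood at 456 CPM in Mfn2, 319 in Rhot1 and 229 in WT tumours, and its Mfn2 ratio was 1.99 (1.41 to 2.79). Nkg7, a granule membrane protein gene of killer lymphocytes, was present in nearly every cell, at 2671 CPM in Mfn2, 2194 in Rhot1 and 2210.2 in WT tumours. The lowest Mfn2 ratios on the list were those of Ctsw (cathepsin W), 0.863 (0.589 to 1.24), and the lysosomal membrane gene Lamp1, 1.03 (0.588 to 1.72). Among the other members, Srgn (serglycin, the granule scaffold) had a Mfn2 ratio of 1.49 (1.20 to 1.84) and Serpinb9, an inhibitor of granzyme B, 1.59 (1.08 to 2.31), against Rhot1 ratios of 0.955 (0.786 to 1.16) and 0.699 (0.467 to 1.03).

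**Figure D3:**
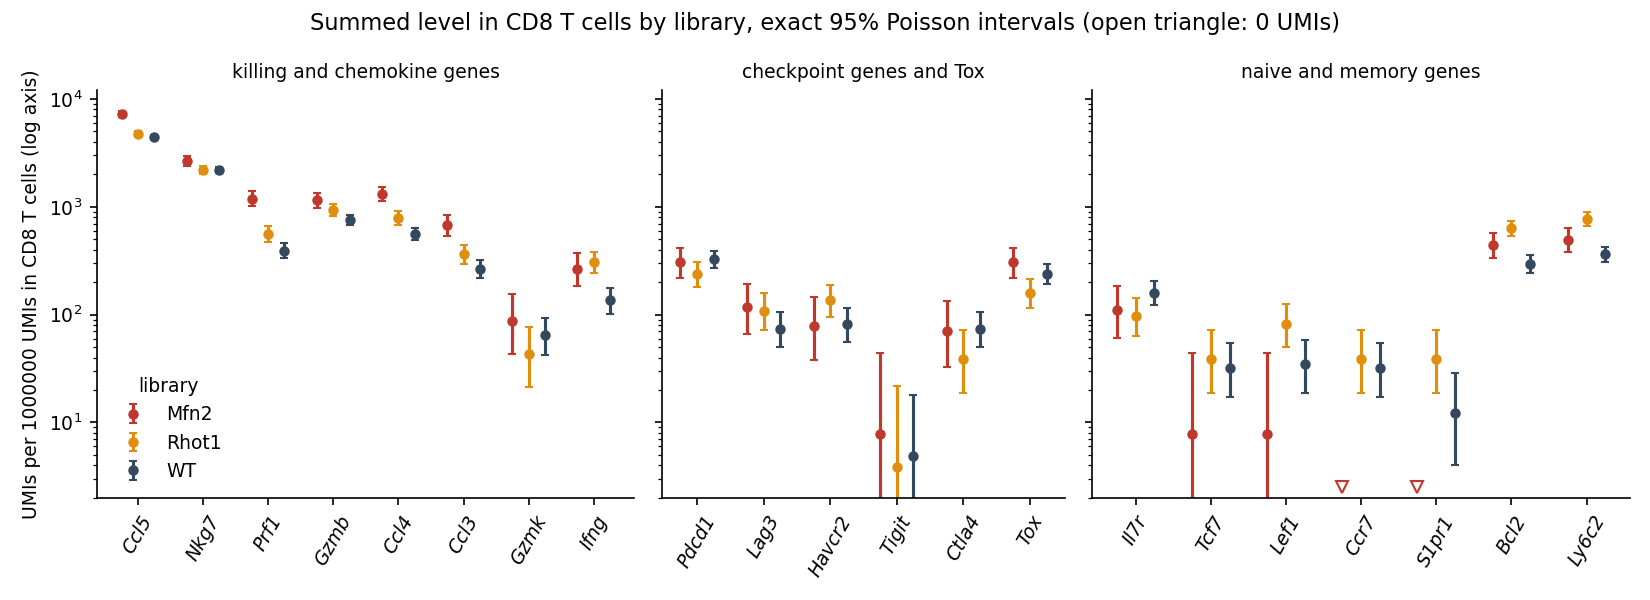
Summed level of selected genes in CD8 T cells, in UMIs per 1000000 UMIs on a log axis, for the Mfn2, Rhot1 and WT libraries. Points are 1 library each, bars are exact 95% Poisson intervals and open triangles mark 0 UMIs. Prf1, Ccl3, Ccl4 and Ccl5 are highest in Mfn2, at 1194 CPM for Prf1, and Ccr7 and S1pr1 have 0 UMIs there.

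Gzmf RNA rested on few cells. Gzmf, a granzyme of a cluster on chromosome 14, stood at 314 CPM in Mfn2, 980.1 in Rhot1 and 229 in WT tumours. One Rhot1 cell held 194 of the 252 Gzmf UMIs, and the Rhot1 ratio of 4.27 (3.36 to 5.48) was 1.73 without the top cell of each library. Its near neighbours Gzmd and Gzme had 6 and 6 UMIs in Mfn2, 18 and 16 in Rhot1, and 0 and 0 in WT CD8 T cells, where 3 UMIs would be 7.40 CPM. Gzmd and Gzme transcripts are 93.3% identical over their aligned coding bases and Gzmf is 83.3% identical to Gzmd, so their counts are uncertain. A UMI of any of these 3 genes was found in 5 of 43 CD8 T cells in Mfn2, 10 of 81 in Rhot1 and 5 of 117 in WT tumours, and all 20 of these cells also had Gzmb or Prf1. Gzma had 36 UMIs in Mfn2, 29 in Rhot1 and 61 in WT tumours, and Gzmk, a granzyme of memory and transitional CD8 T cells, had 11 UMIs in Mfn2, 11 in Rhot1 and 26 in WT tumours. Ifng, which encodes interferon gamma, stood at 267 CPM in Mfn2, 307 in Rhot1 and 136 in WT tumours. Its Rhot1 ratio was 2.26 (1.59 to 3.26), yet it had a UMI in 34.9% of CD8 T cells in Mfn2, 14.8% in Rhot1 and 29.1% in WT tumours, one Rhot1 cell held 66 of its 79 UMIs, and its log2 ratio in Rhot1 was -1.18 without the top cell of each library, against 1.15 with them.

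The chemokine genes Ccl3 and Ccl4 also stood higher in CD8 T cells of Mfn2 tumours. Ccl5, which attracts T cells and monocytes, stood at 7315 CPM in Mfn2, 4784 in Rhot1 and 4455 in WT tumours, with a Mfn2 ratio of 1.64 (1.52 to 1.78) and a Rhot1 ratio of 1.07 (0.998 to 1.16). Ccl4 stood at 1312 CPM in Mfn2, 789.5 in Rhot1 and 560.0 in WT tumours, and Ccl3 at 676 CPM in Mfn2, 362 in Rhot1 and 266 in WT tumours. Both encode chemokines that attract T cells and macrophages, and both passed 2-fold in Mfn2, with ratios of 2.34 (1.91 to 2.87) and 2.54 (1.89 to 3.40). Each fell under 2-fold in 1 alternative, Ccl4 at a log2 ratio of 0.87 with cells weighted alike and Ccl3 at 0.996 without the top cell of each library. Of 7 chemokine genes, 3 passed the filter in Mfn2 with 2 higher and 0 lower, and 5 passed in Rhot1 with 2 higher and 0 lower. The 2 in Rhot1 were Xcl1 (lymphotactin), at 23.6 CPM in Mfn2, 128 in Rhot1 and 34.5 in WT tumours, and Cxcl10, at 31.4 CPM in Mfn2, 77.8 in Rhot1 and 34.5 in WT tumours. Without the top cell of each library the Rhot1 ratio of Ccl3 was 0.736, against 1.36 with them. C1q-high cells carry these genes too: a Ccl4 UMI was found in 41.9%, 35.8% and 45.3% of CD8 T cells in the Mfn2, Rhot1 and WT libraries, against 29.6%, 34.0% and 28.6% of C1q-high cells. For Ccl5 the shares were 93.0%, 79.0% and 88.9% of CD8 T cells, against 5.48%, 9.51% and 7.81% of C1q-high cells. The macrophage list of 12 markers summed to 1273 CPM in Mfn2, 669 in Rhot1 and 812 in WT CD8 T cells, with 0, 2 and 1 of the 12 at 0, and its part in the chemokine levels was not tested. Among receptors, Cxcr6 stood at 550.0 CPM in Mfn2, 369 in Rhot1 and 348 in WT tumours, and of 10 receptor genes 0 of the 5 that passed were 2-fold apart in either knockout.

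Most inhibitory receptor genes lay within 2-fold of WT, as did most genes past the filter. Of 16 checkpoint and exhaustion genes 11 passed the filter in each comparison, with 1 higher and 0 lower in Mfn2 and 0 and 0 in Rhot1. Over all genes 3.45% were higher and 3.45% lower in Mfn2, and 1.33% and 1.63% in Rhot1. The median log2 ratio was 0.08 in Mfn2, beside 0.02 over all genes, and -0.37 in Rhot1, beside -0.00. Pdcd1 stood at 306 CPM in Mfn2, 237 in Rhot1 and 326 in WT tumours, and the Mfn2 ratio was 0.941 (0.641 to 1.35). Tox, a transcription factor of exhausted CD8 T cells, stood at 306 CPM in Mfn2, 159 in Rhot1 and 239 in WT tumours, with ratios of 1.28 (0.860 to 1.87) in Mfn2 and 0.666 (0.451 to 0.969) in Rhot1. Havcr2 (TIM-3) stood at 78.6 CPM in Mfn2, 136 in Rhot1 and 81.4 in WT tumours, Lag3 at 118 CPM in Mfn2, 109 in Rhot1 and 74.0 in WT tumours and Ctla4 at 70.7 CPM in Mfn2, 38.9 in Rhot1 and 74.0 in WT tumours. Their intervals in Mfn2 all held 1. The member past 2-fold in Mfn2 was Cd160, a receptor for HVEM, with 20 UMIs in Mfn2, 35 in Rhot1 and 30 in WT tumours and ratios of 2.12 (1.14 to 3.86) in Mfn2 and 1.84 (1.10 to 3.10) in Rhot1. Nr4a2, a transcription factor induced by T cell receptor signals, followed in Mfn2 at 1.59 (1.08 to 2.32). In Rhot1 the lowest members were Ctla4, 0.526 (0.229 to 1.10), and the ectoenzyme gene Entpd1 (CD39), 0.556 (0.262 to 1.10). Tigit had only 1 UMI in Mfn2, 1 in Rhot1 and 2 in WT tumours.

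Naive and stem-like genes were seldom detected in Mfn2 tumours. Tcf7 (TCF1) had 1 UMI in Mfn2, 10 in Rhot1 and 13 in WT tumours, and Lef1 had 1 UMI in Mfn2, 21 in Rhot1 and 14 in WT tumours. Ccr7 had 0 UMIs in Mfn2, 10 in Rhot1 and 13 in WT tumours, and S1pr1, the receptor by which lymphocytes leave tissue, had 0 UMIs in Mfn2, 10 in Rhot1 and 5 in WT tumours. In Mfn2, a count of 0 allows up to 23.6 CPM (3 UMIs), against WT levels of 32.1 CPM for Ccr7 and 12.3 CPM for S1pr1. A UMI of any of these 4 genes was found in 2 of 43 CD8 T cells in Mfn2 (4.65%, 0.568 to 15.8), 22 of 81 in Rhot1 (27.2%, 17.9 to 38.2) and 24 of 117 in WT (20.5%, 13.6 to 29.0). C1q-high cells had one in 3.92%, 6.15% and 6.39% in the Mfn2, Rhot1 and WT libraries, so the Mfn2 share is within counting error of background and is not read as expression. Tumour-marker cells, which are deeper, had one in 2.80%, 2.54% and 7.84% in the Mfn2, Rhot1 and WT libraries. With cells thinned to 1500 UMIs the CD8 shares were 2.70% in Mfn2 (0.0684 to 14.2), 17.6% in Rhot1 (9.70 to 28.2) and 13.6% in WT (7.63 to 21.8). The thinned Mfn2 interval overlapped both others, and the thinned WT interval held the tumour-marker share of its library.

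In Rhot1 tumours 3 genes of the naive and memory list stood above WT. Of its 15 genes 7 passed the filter, with 3 higher and 0 lower by 2-fold and a median log2 ratio of 0.23 beside -0.00, against 7 passed, 0 and 0 and a median of 0.00 beside 0.02 in Mfn2. Bcl2, a survival gene, stood at 440.0 CPM in Mfn2, 634 in Rhot1 and 296 in WT tumours, with a Rhot1 ratio of 2.14 (1.68 to 2.73). Ly6c2, a surface antigen of memory and interferon-exposed CD8 T cells, stood at 495 CPM in Mfn2, 774 in Rhot1 and 363 in WT tumours, with a Rhot1 ratio of 2.13 (1.72 to 2.66). The other member past 2-fold was Lef1, 2.37 (1.15 to 5.03). All 3 were under 2-fold in 1 or more alternatives, with log2 ratios of 0.87 to 0.99 there. Il7r, the interleukin 7 receptor kept by memory cells, had the lowest Rhot1 ratio, 0.606 (0.366 to 0.975), followed by Klf2, which drives S1pr1, at 1.03 (0.697 to 1.51). In Mfn2 Klf2, 0.575 (0.292 to 1.05), and Satb1, a chromatin organiser, 0.597 (0.258 to 1.23), were lowest.

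Killing and checkpoint RNA were then set beside the naive genes within cells. Over the 3 libraries, Gzmb or Prf1 was found in 27 of 48 CD8 T cells with a UMI of Tcf7, Lef1, Ccr7 or S1pr1 (56.2%), and in 162 of 193 without (83.9%). Pdcd1 was found in 11 of 48 (22.9%) and 104 of 193 (53.9%). Median depth was near equal, 2753 and 2855 UMIs. In Rhot1 tumours Prf1 stood at 138 CPM in the 22 cells with a naive gene (66.4 to 255) and 730.2 CPM in the 59 without (612 to 864), and in WT tumours at 349 CPM in 24 cells (232 to 504) and 403 CPM in 93 (337 to 478). Cxcr6 stood at 138 CPM with and 459.7 CPM without in Rhot1, and at 62.3 CPM with and 418 CPM without in WT. Il7r ran the other way, at 180.0 CPM with and 64.9 CPM without in Rhot1, and 498 CPM with and 76.9 CPM without in WT. These cells share their library and tumours, so the values describe them and no test was made.

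Like most genes past the filter, those of the T cell receptor complex lay within 2-fold of WT, apart from 1 constant gene in Mfn2. Of its 15 genes 15 passed the filter in each comparison, with 0 higher and 1 lower in Mfn2 and 0 and 0 in Rhot1, and median log2 ratios of 0.01 and -0.05. Trac stood at 699 CPM in Mfn2, 556 in Rhot1 and 634 in WT tumours and the kinase gene Lck at 424 CPM in Mfn2, 537 in Rhot1 and 424 in WT tumours. Zap70, the kinase recruited to the activated receptor, had the highest Mfn2 ratio at 1.81 (1.18 to 2.76), followed by the costimulatory receptor Cd28 at 1.46 (0.927 to 2.24). Cd28 was lowest in Rhot1, 0.586 (0.358 to 0.931), and Lat and Lck were highest, 1.27 (0.913 to 1.76) and 1.27 (1.00 to 1.59). The gene 2-fold lower in Mfn2 was Trbc1, followed by Cd5, which dampens receptor signalling, at 0.603 (0.227 to 1.37).

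Each alpha-beta T cell joins its beta chain to either the Trbc1 or the Trbc2 constant region. The genes lie side by side on chromosome 6, and their coding sequence after the first exon is shown because it holds most of the coding differences between the pair. The libraries tag 3′ ends, so the untranslated ends, not shown, may also separate them. Trbc1 takes these bases from chr6:41539114-41539662 and Trbc2 from chr6:41547610-41548178, both on the plus strand of GRCm38, spliced over the last 3 of 4 coding exons in GENCODE M21, coding bases 376 to 518. Capitals mark the 22 differences within the 143 bases. The first coding exon, 375 bases long, holds 1 more, and over all 518 coding bases the pair is 95.6% identical.
Trbc1: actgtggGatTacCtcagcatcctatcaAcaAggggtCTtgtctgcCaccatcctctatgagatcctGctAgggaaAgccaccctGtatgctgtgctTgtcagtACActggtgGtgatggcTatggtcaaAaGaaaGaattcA
Trbc2: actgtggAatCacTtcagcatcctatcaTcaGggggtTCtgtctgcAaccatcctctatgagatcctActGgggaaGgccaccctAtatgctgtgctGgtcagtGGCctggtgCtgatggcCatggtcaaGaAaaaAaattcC
Trbc1 stood at 401 CPM in Mfn2, 739 in Rhot1 and 997 in WT tumours, and Trbc2 at 1595 CPM in Mfn2, 1303 in Rhot1 and 1347 in WT tumours. The Mfn2 ratio of Trbc1 was 0.402 (0.294 to 0.539) and the Rhot1 ratio 0.742 (0.621 to 0.883), while Trbc2 had 1.18 (1.00 to 1.39) and 0.967 (0.842 to 1.11). Trbc1 had a UMI in 11 of 43 CD8 T cells in Mfn2 (25.6%, 13.5 to 41.2), 43 of 81 in Rhot1 (53.1%, 41.7 to 64.3) and 67 of 117 in WT (57.3%, 47.8 to 66.4). The Mfn2 interval lay below both others, by less than 1 percentage point for Rhot1. With cells thinned to 1500 UMIs the shares were 18.9% in Mfn2 (7.96 to 35.2), 43.2% in Rhot1 (31.8 to 55.3) and 49.5% in WT (39.5 to 59.5), and the Mfn2 interval then overlapped that of Rhot1 and not that of WT. More Trbc1 than Trbc2 UMIs were found in 4 of 40 CD8 T cells with either gene in Mfn2 (10.0%, 2.79 to 23.7), 24 of 80 in Rhot1 (30.0%, 20.3 to 41.3) and 44 of 111 in WT (39.6%, 30.5 to 49.4), where again the Mfn2 interval overlapped that of Rhot1 and not that of WT. Among CD4 T cells these shares were 3 of 11 in Mfn2, 3 of 12 in Rhot1 and 4 of 26 in WT. In the other T cells they were 9 of 30 in Mfn2 (30.0%), 16 of 52 in Rhot1 (30.8%) and 35 of 115 in WT (30.4%). NK cells, with no Cd3 UMI, held Trbc1 RNA too, at 618 CPM in Mfn2, 514 in Rhot1 and 508 in WT. A Trbc1 UMI was thus not particular to T cells. Cells with both genes were common, 11, 36 and 60 in the Mfn2, Rhot1 and WT libraries, and the matching of reads between the near-identical copies was not tested.

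**Figure D4:**
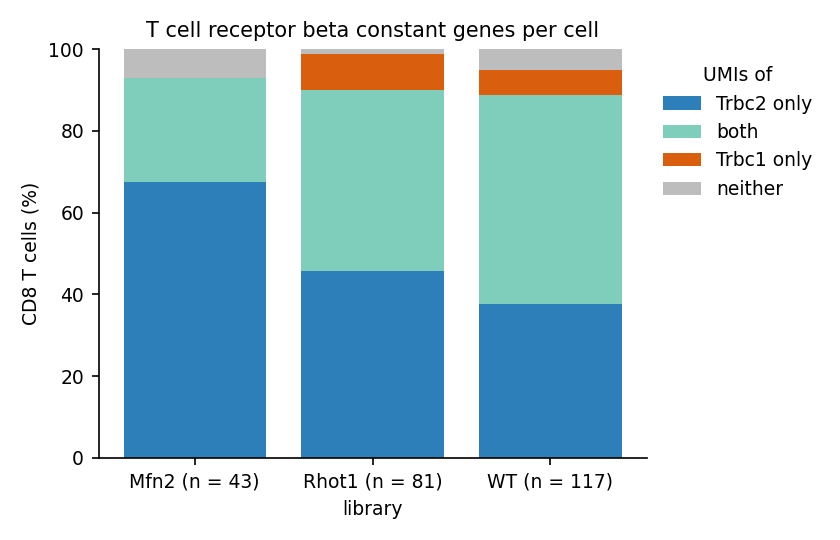
Percentage of CD8 T cells in each library with UMIs of Trbc2 only, of both constant genes, of Trbc1 only or of neither. Trbc2 alone was found in 29 of 43 cells in Mfn2, 37 of 81 in Rhot1 and 44 of 117 in WT tumours, and Trbc1 alone in 0, 7 and 7.

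Costimulation, residency and regulator genes were mostly within 2-fold of WT, as were most genes past the filter. Of 12 costimulation genes 11 passed in each comparison, with 0 higher and 0 lower in Mfn2 and 0 higher and 1 lower in Rhot1. The gene lower in Rhot1 was Icos, 0.473 (0.276 to 0.780). In Mfn2 the highest were Cd27, 1.59 (1.05 to 2.38), and Il2rb, the receptor chain for interleukins 2 and 15, 1.48 (1.13 to 1.91), and the lowest were Tnfrsf9 (4-1BB), 0.658 (0.410 to 1.02), and Tnfrsf18 (GITR), 0.748 (0.473 to 1.15). Killer lectin receptors, which CD8 T cells share with NK cells, had 5 of 8 genes past the filter and 0 past 2-fold in either knockout, with Klrd1 (CD94) at 707 CPM in Mfn2, 529 in Rhot1 and 476 in WT tumours. Cd69, an early activation and residency marker, was the exception in Mfn2, at 55.0 CPM in Mfn2, 206 in Rhot1 and 212 in WT tumours, with a ratio of 0.259 (0.101 to 0.557). It had a UMI in 14.0% of CD8 T cells in Mfn2, 23.5% in Rhot1 and 30.8% in WT tumours. Of 15 transcription factors of CD8 differentiation, 9 passed in Mfn2 with 1 higher, and 7 in Rhot1 with 0 past 2-fold. Irf8 was the one past 2-fold, at 377 CPM in Mfn2, 288 in Rhot1 and 158 in WT tumours, and Id2, which favours effector cells, followed with Mfn2 and Rhot1 ratios of 1.84 (1.46 to 2.31) and 1.30 (1.06 to 1.60). Runx3, the factor that fixes CD8 lineage, was nearly equal at 259 CPM in Mfn2, 253 in Rhot1 and 252 in WT tumours.

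The interferon-stimulated genes Ifit3 and Slfn5 stood 2-fold higher in Rhot1 tumours, and the other genes of their list past the filter did not. Of 32 genes 12 passed the filter in Rhot1, with 2 higher and 0 lower, 10 above a ratio of 1 and a median log2 ratio of 0.38 beside -0.00. In Mfn2 11 passed, with 1 higher and 0 lower and a median of -0.01 beside 0.02. Ifit3, a gene of the antiviral response, had 17 UMIs in Mfn2, 27 in Rhot1 and 10 in WT tumours. It was past 2-fold in both knockouts, with ratios of 5.41 (2.34 to 13.2) in Mfn2 and 4.26 (2.00 to 9.86) in Rhot1. It had a UMI in 4 of 43 CD8 T cells in Mfn2, 10 of 81 in Rhot1 and 4 of 117 in WT. Isg15, a ubiquitin-like modifier, stood at 110.0 CPM in Mfn2, 210.0 in Rhot1 and 116 in WT tumours, with a Rhot1 ratio of 1.81 (1.20 to 2.74). Slfn5 was the other gene past 2-fold in Rhot1, 2.25 (1.08 to 4.82), and Parp14 and Trim30a were lowest there, 0.676 (0.366 to 1.20) and 0.985 (0.481 to 1.96). A UMI of Ifit1, Ifit2, Ifit3 or Ifit3b was found in 14.0% of CD8 T cells in Mfn2 (5.30 to 27.9), 22.2% in Rhot1 (13.7 to 32.8) and 11.1% in WT (6.05 to 18.3). C1q-high cells had one in 8.72%, 12.1% and 9.32%, which the Mfn2 and WT intervals held and the Rhot1 interval lay just above. Thinned to 1500 UMIs, the shares were 10.8% in Mfn2, 18.9% in Rhot1 (10.7 to 29.7) and 7.77% in WT, and the Rhot1 interval held the C1q-high share too. Genes of cytosolic DNA sensing, the cGAS-STING pathway, were sparse, with 4 of 14 past the filter in Mfn2 and 5 in Rhot1, and Sting1 stood at 39.3 CPM in Mfn2, 66.1 in Rhot1 and 66.6 in WT tumours. NF-kB targets had medians of 0.01 in Mfn2 and -0.05 in Rhot1, with 0 of 10 past 2-fold in either.

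The heat shock genes Hspa1a and Hspa1b were seldom detected in CD8 T cells of Mfn2 tumours. Hspa1b had 1 UMI in Mfn2, 34 in Rhot1 and 43 in WT tumours, and Hspa1a had 2 UMIs in Mfn2, 24 in Rhot1 and 33 in WT tumours. Either gene had a UMI in 6.98% of CD8 T cells in Mfn2 (1.46 to 19.1), 33.3% in Rhot1 (23.2 to 44.7) and 29.1% in WT (21.0 to 38.2). The same share was 30.9%, 35.8% and 55.5% of C1q-high cells and 14.7%, 16.3% and 31.2% of tumour-marker cells in the Mfn2, Rhot1 and WT libraries, at greater median depth. Thinned to 1500 UMIs, the CD8 shares were 8.11% in Mfn2 (1.70 to 21.9), 25.7% in Rhot1 (16.2 to 37.2) and 21.4% in WT (13.9 to 30.5). The Mfn2 interval then overlapped both others, unlike the one without thinning. Both other classes carry these genes, and the part of free RNA in the CD8 values was not tested. Of 20 genes induced by enzymatic dissociation, 14 passed in Mfn2 with 1 higher (Ier3) and 1 lower (Hspa1b), and 15 in Rhot1 with 0 higher and 2 lower (Fos and Dusp1). The medians were 0.17 in Mfn2 and 0.03 in Rhot1. Fos stood at 181 CPM in Mfn2, 42.8 in Rhot1 and 173 in WT tumours, and Jun at 181 CPM in Mfn2, 373 in Rhot1 and 333 in WT tumours.

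Of the G2/M phase list, 3 genes stood 2-fold lower in CD8 T cells of Mfn2 tumours. Of 20 genes 13 passed in Mfn2, with 0 higher and 3 lower (Hmmr, Top2a and Tpx2) and a median log2 ratio of -0.66 beside 0.02. In Rhot1 14 passed, with 1 higher (Cdk1) and 2 lower (Hmmr and Cenpa) and a median of -0.36 beside -0.00. Top2a, the topoisomerase of dividing cells, stood at 196 CPM in Mfn2, 459 in Rhot1 and 486 in WT tumours, and Mki67 at 189 CPM in Mfn2, 292 in Rhot1 and 301 in WT tumours. S phase genes had medians of -0.08 in Mfn2, where 1 of 13 was lower (Mcm7), and 0.29 in Rhot1, where 0 of 15 passed 2-fold. A UMI of Mki67 or Top2a was found in 25.6% of CD8 T cells in Mfn2 (13.5 to 41.2), 45.7% in Rhot1 (34.6 to 57.1) and 41.9% in WT (32.8 to 51.4), against 72.9%, 80.3% and 74.0% of tumour-marker cells and 31.0%, 41.9% and 30.8% of C1q-high cells. Thinned to 1500 UMIs, the CD8 shares were 27.0%, 36.5% and 35.0%, with intervals that overlapped. Unthinned, the Mfn2 and Rhot1 intervals held the C1q-high share of their library and the WT interval lay just above it, and no cycling is called from these shares. Over the 3 libraries Gzmb or Prf1 was found in 84 of 97 CD8 T cells with Mki67 or Top2a (86.6%) and 105 of 144 without (72.9%), at median depths of 3829 and 2331 UMIs.

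Of the glycolysis list, 3 genes stood 2-fold higher in CD8 T cells of Mfn2 tumours. Of 17 genes 15 passed the filter, with 3 higher (Pfkl, Pgam1 and Slc16a3) and 0 lower, 13 above a ratio of 1 and a median log2 ratio of 0.52 beside 0.02. In Rhot1 11 passed with 0 past 2-fold and a median of 0.09 beside -0.00. Pgam1, phosphoglycerate mutase, stood at 464 CPM in Mfn2, 303 in Rhot1 and 217 in WT tumours, with a Mfn2 ratio of 2.14 (1.51 to 3.00). Aldoa (aldolase) stood at 1045 CPM in Mfn2, 719.5 in Rhot1 and 634 in WT tumours, Ldha (lactate dehydrogenase) at 1006 CPM in Mfn2, 782 in Rhot1 and 723 in WT tumours and Gapdh at 2396 CPM in Mfn2, 1906 in Rhot1 and 1811 in WT tumours. The lowest Mfn2 ratios were those of Hk1 (hexokinase 1), 0.929 (0.338 to 2.22), and Pfkp, 0.973 (0.575 to 1.59). Tumour cells carry this RNA as well, and over all kept cells Pgam1 stood at 740 CPM in Mfn2, 641 in Rhot1 and 631 in WT, and Gapdh at 1715, 1557 and 1525 CPM, a smaller spread than in CD8 T cells. Their part in the CD8 levels was not tested. The 31 nuclear genes of oxidative phosphorylation were near WT, with 29 past the filter in each comparison, 0 higher and 1 lower (Sdhc, a subunit of complex II) in Mfn2 and 0 and 0 in Rhot1, and medians of -0.14 and -0.07. The 13 mitochondrially encoded genes had 8 past the filter, 0 past 2-fold in either, and medians of -0.03 and 0.16. Of 14 genes of mitochondrial dynamics and transport, 3 passed in Mfn2 and 2 in Rhot1, and 0 passed 2-fold; Fis1, a fission adaptor, stood at 259 CPM in Mfn2, 268 in Rhot1 and 219.5 in WT tumours.

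The widest ratios over all genes often rested on few cells. Ranking was limited to genes with a UMI in 8 or more CD8 T cells of the higher library and a level there no lower than over all its kept cells, which left 1807 genes in Mfn2 and 1856 in Rhot1. The 8 highest and 8 lowest are given. In Mfn2 the highest were Slc17a6, a vesicular glutamate transporter, Znfx1, Prf1, Abcf2, Ggct, Yeats4, Fabp5 and Ndufaf4, a complex I assembly factor. Slc17a6 had 15 UMIs in Mfn2, 1 in Rhot1 and 13 in WT tumours, a Mfn2 ratio of 3.68 (1.63 to 8.39), and a UMI in 11, 1 and 9 CD8 T cells of those libraries against 0 to 0.0470% of tumour-marker cells. Znfx1, an RNA helicase-like antiviral factor, had 10 UMIs in Mfn2, 6 in Rhot1 and 9 in WT tumours, and the fatty acid binding protein gene Fabp5 had 38 UMIs in Mfn2, 26 in Rhot1 and 42 in WT tumours, 25 of the Mfn2 UMIs in 1 cell. Fabp5 had a log2 ratio of -0.10 without barcodes that Scrublet marked as doublets, against 1.48 with them. Abcf2, Ggct, Yeats4 and Ndufaf4 had 10 to 17 UMIs in Mfn2, and each had a UMI in more than 26% of tumour-marker cells there. The lowest in Mfn2 were S100a8, Hspa1b, S100a9, Hmmr, the histone genes H2ac24 and H2ac8, Cd69 and Tmem254a. Hmmr, a mitotic spindle gene, had 2 UMIs in Mfn2, 7 in Rhot1 and 37 in WT tumours. H2ac24 stood at 212 CPM in Mfn2, 369 in Rhot1 and 928 in WT tumours, and H2ac8 at 110.0 CPM in Mfn2, 167 in Rhot1 and 442 in WT tumours. S100a8 and S100a9, which encode the neutrophil protein calprotectin, had 964 of 987 and 310 of 339 WT UMIs in 1 cell. Without the top cell of each library their Mfn2 log2 ratios were 0.44 and 0.26.

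In Rhot1 the highest were Gzmf, Dapl1, Ifit3, Cst3, Xcl1, Socs1, Ms4a4c and Cmc1. Dapl1 had 0 UMIs in Mfn2, 25 in Rhot1 and 9 in WT tumours, in 0, 10 and 3 cells, and 0 UMIs in C1q-high cells. Socs1, a brake on cytokine signalling induced by interferon, stood at 55.0 CPM in Mfn2, 117 in Rhot1 and 34.5 in WT tumours, with a ratio of 3.38 (1.74 to 6.90) and UMIs in 23 of 81 Rhot1 cells. Ms4a4c stood at 55.0 CPM in Mfn2, 167 in Rhot1 and 54.3 in WT tumours. Cst3 (cystatin C) had 227 of its 296 Rhot1 UMIs in 1 cell, and its log2 ratio was -0.09 without the top cell of each library, against 1.86 with them. The lowest were S100a8 and S100a9 again, Cmc2, Hmmr, the histone gene H3c3, Snapc5, Elof1 and the kinase gene Irak1. Snapc5, a subunit of the complex that transcribes small nuclear RNA genes, had 5 UMIs in Mfn2, 7 in Rhot1 and 34 in WT tumours, and Elof1, a transcription elongation factor, had 8 UMIs in Mfn2, 8 in Rhot1 and 38 in WT tumours. H3c3, Snapc5, Elof1 and Irak1 had UMIs in 18, 31, 30 and 25 WT cells and ratios between 0.298 and 0.345.

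CD8 T cells were then set against NK cells of the same libraries, which share their killing machinery. UMIs were summed per library and class and tested with edgeR's quasi-likelihood test with library as a term and Benjamini-Hochberg adjustment, over 3 libraries. Of 3648 genes 95 (2.60%) were higher in CD8 T cells and 79 (2.17%) lower at an adjusted p under 0.05. Without the Rhot1 library the counts were 26 and 28. NK cells numbered 18 in Mfn2, 50 in Rhot1 and 61 in WT tumours. The classes were split on Cd3 and Ncr1 UMIs, so the partners of these genes describe the split: 11 of 15 genes of the receptor complex were higher and 0 lower, Trac with 489 UMIs in CD8 T cells against 1 in NK cells, a ratio of 329 (58.8 to 13020). Cd6, Themis and Cd5, which tune T cell receptor signalling, had 0 UMIs in NK cells and were at least 24.7-fold, 24.9-fold and 13.9-fold higher, computed against 3 UMIs over the NK cells of all libraries. Fam169b and the phospholipase gene Plcg1 also had 0 UMIs in NK cells and were at least 14.4-fold and 10.5-fold higher. The 10 genes lowest in CD8 T cells were Klra8, Klra13-ps, Sulf2, Gzmc, Klrb1c, Klrb1f, Car2, Klrb1b, Klra4 and Atp1b1, of which 6 are killer lectin or Ly49 receptor genes.

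Killing genes lay on both sides. Of 17 cytotoxic effectors tested, 3 were higher in CD8 T cells (Gzmf, Gzmk and Ifng) and 8 lower (Gzma, Gzmb, Gzmc, Gzmd, Gzme, Prf1, Serpinb6b and Serpinb9). Gzma stood at 283, 113 and 150.5 CPM in CD8 T cells of the Mfn2, Rhot1 and WT libraries, against 7222, 3098 and 3616 CPM in NK cells, with a log2 fold change of -4.68 ± 0.13 (SE, adjusted p = 6.9e-11). Gzmc stood at 15.7, 89.5 and 74.0 CPM in CD8 T cells of the Mfn2, Rhot1 and WT libraries, against 1935, 6188 and 4527 CPM in NK cells, with a log2 fold change of -6.11 ± 0.16 (SE, adjusted p = 6.9e-11). Both log2 fold changes lay further from 0 than that of Gzmb, at 1147, 937 and 757 CPM in CD8 T cells of the Mfn2, Rhot1 and WT libraries, against 2913, 2125 and 1503 CPM in NK cells, with a log2 fold change of -1.18 ± 0.12 (SE, adjusted p = 4.1e-05). Prf1 had a log2 fold change of -1.24 ± 0.21 (SE, adjusted p = 0.0035). In the other direction Gzmk had 48 UMIs in CD8 T cells and 1 in NK cells, a ratio of 32.3 (5.53 to 1302), and Ifng stood at 267, 307 and 136 CPM in CD8 T cells of the Mfn2, Rhot1 and WT libraries, against 19.9, 39.2 and 88.4 CPM in NK cells, with a log2 fold change of 1.88 ± 0.41 (SE, adjusted p = 0.017). For Ifng 1 Rhot1 cell held 66 of the 79 UMIs of its library. Without the top cell of each library and class, chosen after seeing the data, Ifng no longer passed, with a log2 fold change of 1.06 ± 0.38 (SE) and an adjusted p of 0.0864 by edgeR's quasi-likelihood test. For Gzmf 1 Rhot1 CD8 T cell held 194 of the 252 UMIs of its library. The adjusted p by the same test was 0.0396 with all cells and 5.36e-12 without top cells. The removal also took out the WT NK cell that held all 33 Gzmf UMIs of NK cells in that library. NK cells were then at 0, 4.54 and 0 CPM in the Mfn2, Rhot1 and WT libraries, so the smaller p adds no support to the call. Gzmd, Gzme and Gzmk were then under the filter on low counts and were not tested. Chemokine genes split too, with Ccl3, Ccl4 and Ccl5 higher and Xcl1 lower. Ccl4 stood at 1312, 789.5 and 560.0 CPM in CD8 T cells of the Mfn2, Rhot1 and WT libraries, against 79.8, 23.5 and 243 CPM in NK cells, with a log2 fold change of 2.73 ± 0.48 (SE, adjusted p = 0.0042), and Xcl1 at 23.6, 128 and 34.5 CPM in CD8 T cells of the Mfn2, Rhot1 and WT libraries, against 179.5, 580.4 and 827 CPM in NK cells, with a log2 fold change of -3.25 ± 0.38 (SE, adjusted p = 1.5e-04). For both genes the 3 libraries lay on the same side.

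Checkpoint genes marked CD8 T cells off from NK cells. Of 11 tested, 6 were higher in CD8 T cells (Entpd1, Havcr2, Lag3, Nr4a2, Pdcd1 and Tox) and 1 was lower (Cd244a, the receptor 2B4). Pdcd1 stood at 306, 237 and 326 CPM in CD8 T cells of the Mfn2, Rhot1 and WT libraries, against 0, 3.92 and 13.3 CPM in NK cells, with a log2 fold change of 5.10 ± 0.40 (SE, adjusted p = 3.7e-06). Tox stood at 306, 159 and 239 CPM in CD8 T cells of the Mfn2, Rhot1 and WT libraries, against 0, 11.8 and 4.42 CPM in NK cells, with a log2 fold change of 4.67 ± 0.44 (SE, adjusted p = 2.2e-05). Cxcr6 had 306 UMIs in CD8 T cells and 2 in NK cells, a ratio of 103 (28.3 to 854). Of 11 costimulation genes 6 were higher, among them Icos, Cd27 and Tnfrsf4 (OX40), and 1 was lower, Il2rb. The list of killer lectin receptors went the other way, with 4 of 7 genes tested lower and 0 higher. Klrh1, a killer lectin receptor gene outside that list, was higher in CD8 T cells. Klrh1 had 99 UMIs in CD8 T cells and 1 in NK cells, with a log2 fold change of 5.63 ± 0.60 (SE, adjusted p = 6.2e-05). Klra8, an activating Ly49 receptor gene, had 0 UMIs in CD8 T cells and 89 in NK cells, and was at least 44.1-fold lower, computed against 3 UMIs over the CD8 T cells of all libraries. Klrk1 (NKG2D) stood at 244, 214 and 215 CPM in CD8 T cells of the Mfn2, Rhot1 and WT libraries, against 618, 412 and 469 CPM in NK cells, with a log2 fold change of -1.13 ± 0.19 (SE, adjusted p = 0.0031). Of the naive and memory list Il7r and Ly6c2 were higher and Eomes, a transcription factor of killer lymphocytes, lower, with Eomes at 55.0, 46.7 and 51.8 CPM in CD8 T cells of the Mfn2, Rhot1 and WT libraries, against 159.6, 137 and 164 CPM in NK cells.

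**Figure D5:**
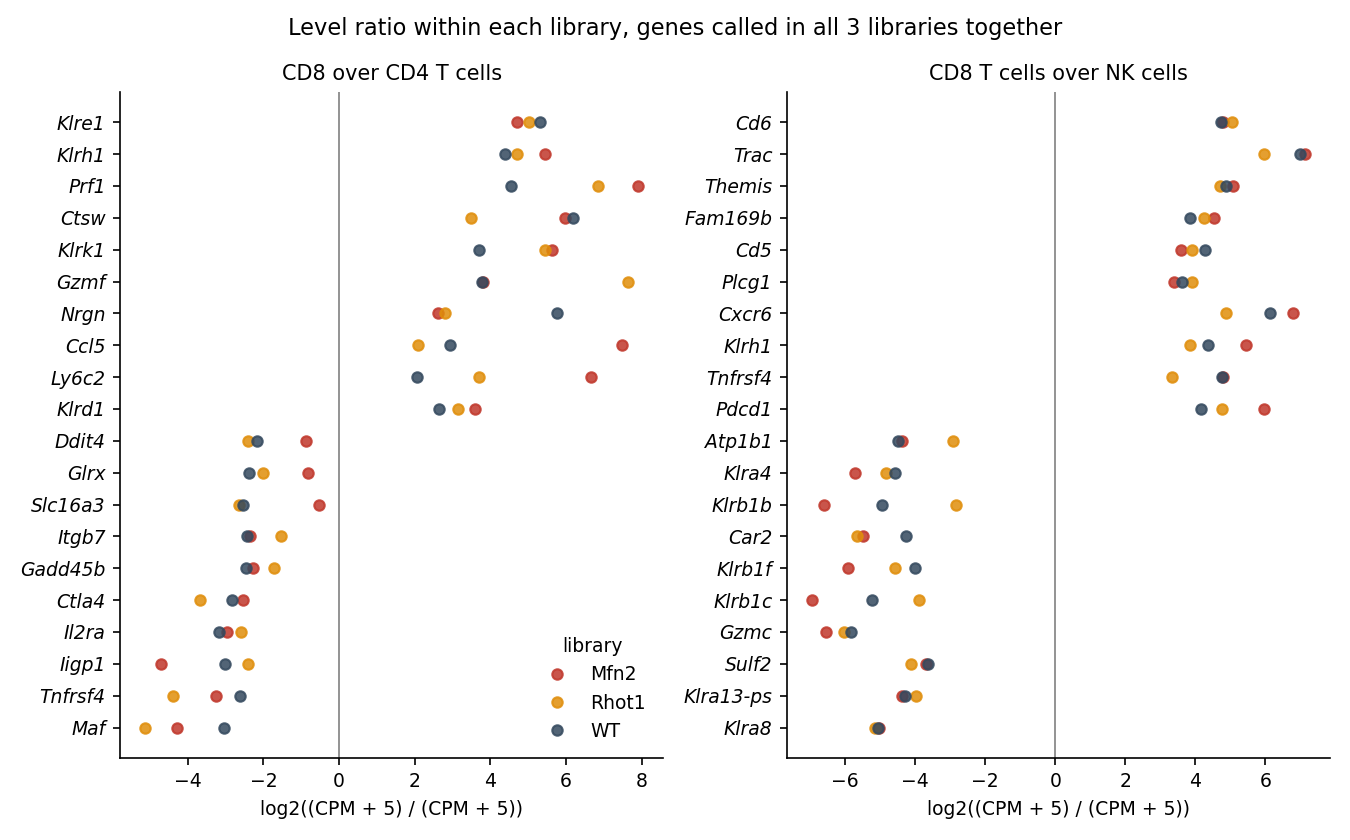
Ratio of the level in CD8 T cells to that in CD4 T cells (left) and NK cells (right) of the same library, as log2((CPM + 5) / (CPM + 5)), for the 10 genes with the highest and the 10 with the lowest fold change among those called over the 3 libraries. Points are 1 library each, and all points of a gene lie on the same side of 0.

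CD8 T cells differed from CD4 T cells in killing and costimulation genes, although the CD4 T cells were few, 12 in Mfn2, 13 in Rhot1 and 31 in WT tumours. By the same test 25 of 1719 genes (1.45%) were higher in CD8 T cells and 31 (1.80%) lower. This count rests on all 3 libraries. Without the Rhot1 library 0 genes passed in either direction with edgeR, against 52 and 56 at an unadjusted p under 0.05, and without the WT library 5 and 6 passed. One Mfn2 CD4 T cell held 19170 of the 55704 UMIs of its class, and without the Mfn2 library 86 and 128 passed, with all 25 and 31 among them. Of 12 cytotoxic effectors tested 5 were higher (Cst7, Ctsw, Gzmf, Nkg7 and Prf1) and 1 lower (Srgn). Nkg7 stood at 2671, 2194 and 2210.2 CPM in CD8 T cells of the Mfn2, Rhot1 and WT libraries, against 826, 688 and 300.2 CPM in CD4 T cells, with a log2 fold change of 2.13 ± 0.24 (SE, adjusted p = 1.1e-04). Prf1 had 456 UMIs in CD8 T cells and 1 in CD4 T cells, a ratio of 101 (18.1 to 4007). Gzmb did not pass, at 1147, 937 and 757 CPM in CD8 T cells of the Mfn2, Rhot1 and WT libraries, against 1275, 220.3 and 456 CPM in CD4 T cells, with a log2 fold change of 0.77 ± 0.33 (SE, adjusted p = 0.31). Klre1 and Klrh1, killer lectin receptor genes, had 0 UMIs in CD4 T cells and were at least 9.92-fold and 7.33-fold higher, computed against 3 UMIs over the CD4 T cells. Klrd1 stood at 707, 529 and 476 CPM in CD8 T cells of the Mfn2, Rhot1 and WT libraries, against 53.9, 55.1 and 72.0 CPM in CD4 T cells, with a log2 fold change of 3.20 ± 0.37 (SE, adjusted p = 1.2e-04), and Ccl5 at 7315, 4784 and 4455 CPM in CD8 T cells of the Mfn2, Rhot1 and WT libraries, against 35.9, 1129 and 576 CPM in CD4 T cells, with a log2 fold change of 3.48 ± 0.52 (SE, adjusted p = 0.0011). Nrgn (neurogranin), a calmodulin-binding protein gene, had a log2 fold change of 3.54 ± 0.58 (SE, adjusted p = 0.0023).

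Genes lower in CD8 than in CD4 T cells included receptors known from regulatory T cells. Of 10 costimulation genes tested 5 were lower (Icos, Il2ra, Tnfrsf18, Tnfrsf4 and Tnfrsf9) and 0 higher. Tnfrsf4 stood at 134, 85.6 and 131 CPM in CD8 T cells of the Mfn2, Rhot1 and WT libraries, against 1310.5, 1899.7 and 828 CPM in CD4 T cells, with a log2 fold change of -3.38 ± 0.33 (SE, adjusted p = 2.5e-05). Il2ra (CD25) stood at 23.6, 23.3 and 19.7 CPM in CD8 T cells of the Mfn2, Rhot1 and WT libraries, against 215, 165 and 216 CPM in CD4 T cells, with a log2 fold change of -3.11 ± 0.48 (SE, adjusted p = 0.0014). Ctla4 stood at 70.7, 38.9 and 74.0 CPM in CD8 T cells of the Mfn2, Rhot1 and WT libraries, against 431, 551 and 552 CPM in CD4 T cells, with a log2 fold change of -3.03 ± 0.36 (SE, adjusted p = 1.5e-04), and the transcription factor Ikzf2 (Helios) at 173, 241 and 242 CPM in CD8 T cells of the Mfn2, Rhot1 and WT libraries, against 485, 1156 and 961 CPM in CD4 T cells, with a log2 fold change of -1.89 ± 0.27 (SE, adjusted p = 8.1e-04). Iigp1, Gadd45b, Itgb7, Slc16a3, Glrx and Ddit4 completed the 10 lowest. Maf, a transcription factor of helper and regulatory T cells, had a log2 fold change of -4.07 ± 0.45 (SE, adjusted p = 1.1e-04). Tox and Pdcd1 did not pass, with adjusted p of 0.27 and 0.55. Bcl2 and Ly6c2 were higher in CD8 T cells, with a log2 fold change of 2.53 ± 0.38 (SE, adjusted p = 0.001) for Bcl2.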

How the data were processed

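UMI counts of transcript 3′ ends per gene and cell were deposited as 1 filtered matrix per library, made with Cell Ranger 7.0.0, per the file headers, against mm10, per the submitters' processing notes. The members, gene lists and tests were chosen with earlier results of these data known. Kept cells, CD8 T cells, CD4 T cells and NK cells were taken by the thresholds given above, and no doublet call entered the rule. Scrublet (scanpy 1.11.5) marked 304, 223 and 255 kept barcodes of the Mfn2, Rhot1 and WT libraries, 2, 1 and 2 of them CD8 T cells, and was used as an alternative. Counts were summed per library and class and scaled to CPM, with a pseudocount of 5 CPM for log2 ratios. Classes were compared with edgeR 4.0.16 (quasi-likelihood test, TMM, filterByExpr, library as a term, Benjamini-Hochberg adjustment in R 4.3.3), after checks on simulated data, with DESeq2 1.42.0 as an alternative. The 5 Cd3 and Cd8 genes and the other genes of the rule were left out of counts of calls. Genes outside the 22 lists were named by rank (some genes are not reported here and were left out of the lists): the 8 highest and 8 lowest ratios between libraries and the 10 highest and 10 lowest called fold changes between classes. Intervals are exact (Clopper-Pearson or Poisson, scipy 1.17.1), except log-normal ones for ratios of shares, at 95%. UMIs in 1 cell are not independent, and libraries, not cells, are the replicates. Sequences are from GENCODE M21 transcripts on GRCm38.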

Additional observations from a re-analysis of the deposited data

Results flagged for a closer look

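The summed level of Cxcl2, a neutrophil-attracting chemokine, lay on opposite sides of WT in the knockout libraries. Cxcl2 had 45 UMIs in Mfn2, 9 in Rhot1 and 31 in WT CD8 T cells, and levels of 354, 35.0 and 76.5 CPM. These UMIs lay in 7 of 43 cells in Mfn2, 8 of 81 in Rhot1 and 26 of 117 in WT. The share of cells was thus highest in WT, unlike the level, and the part of RNA from other cell classes was not tested. The log2 ratio of Cxcl2 to WT was 2.14 in Mfn2 and -1.03 in Rhot1, a difference of 3.16. With 1 library a genotype the difference was not tested.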

How the results depend on the processing

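No paired analysis was possible because each genotype is 1 library, so libraries compared with each other share no pair. Of 42 recomputed shares 40 stayed within their intervals. With every barcode thinned to 2000 UMIs, the Rhot1 ratio to WT was 0.571 among low-keratin cells and 0.918 among T and NK cells. Keratin UMIs were thinned too, so low-keratin cells rose from 4238 to 7696 in Rhot1 and from 4946 to 7629 in WT. The ratio of 0.571 is thus not the low-keratin ratio of 0.808 at equal depth. Counts of genes 2-fold apart followed the settings, and 44 of 100 counts of genes moved by more than 1.5 times. Genes higher in Mfn2 numbered 248 without any C1q or keratin UMI, 53 with a pseudocount of 20 CPM, 297 with a filter at 25 CPM, 34 at 100 CPM, 1419 with no filter and 54 without the top cell of each gene. Genes lower in Mfn2 numbered 235, 56, 322, 29 and 1704 under the first 5 of these. Genes higher in Rhot1 numbered 124, 21, 158, 10, 889 and 16 under all 6, and 62 with cells weighted alike, and genes lower in Rhot1 134, 25, 168, 14 and 856 under the first 5. Of 574 list medians 558 stayed within the counting interval of the middle gene of the list. The chemokine median reversed to -0.12 in Mfn2 with no filter and to -0.065 in Rhot1 without C1q or keratin UMIs. Of 1260 single-gene values 14 reversed, 28 fell under 2-fold with the same sign and 10 came past it. Without the top cell, log2 ratios were -0.091 for Cst3 and -1.18 for Ifng in Rhot1, 0.44 for S100a8 and 0.26 for S100a9 in Mfn2, and 0.12 for S100a8 in Rhot1. Without C1q or keratin UMIs they were -0.95 for Ifng and 0.53 for S100a9 in Rhot1, and 0.17 for S100a8 and 1.08 for S100a9 in Mfn2. Without cells carrying 10 or more UMIs of another class, chosen after seeing the data, they were 0.53 and 0.20 for S100a8 and S100a9 in Mfn2, and 0.17 and 0.078 in Rhot1. Without Scrublet-marked barcodes Fabp5 was at -0.10 in Mfn2. Trbc1 in Mfn2 was at -0.95 without C1q or keratin UMIs, just under 2-fold. Between CD8 and CD4 T cells, DESeq2 called 13 genes higher and 17 lower, no filter gave 92 and 52, no library term 40 higher, leaving out cells carrying another class 42 and 49, and 2 UMIs of the class genes 13 higher. Leaving out 1 library gave 0 to 86 higher and 0 to 128 lower. Between CD8 T cells and NK cells, DESeq2 called 34 higher and 35 lower, no filter gave 189 higher, and leaving out 1 library gave 26 to 145 higher and 28 to 124 lower. The cause of these changes was not tested. Of 416 gene values of the class contrasts 376 kept their side of the threshold and 40 lost it with the same sign. Few cells, 43 to 117 a library, and median depths of 2474 to 3038 UMIs limit every value, and genes under 50 CPM were not compared by size.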

Other observations

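Cytokine genes were few in CD8 T cells, with 4 of 10 past the filter and 0 past 2-fold in either knockout. Of 10 tissue residency genes, 4 passed in Mfn2 with 1 lower (Cd69), and 5 passed in Rhot1 with 1 higher (Xcl1). The 4 haemoglobin genes summed to 23.6 CPM in Mfn2, 3.89 in Rhot1 and 163 in WT, and 1 WT cell held 65 of the 67 UMIs of the erythroid list. Some mitochondrially encoded genes had few UMIs beside others: mt-Co2 had 3 UMIs in Mfn2, 4 in Rhot1 and 4 in WT, and mt-Co3 had 3, 5 and 10, against 320, 634 and 931 UMIs of mt-Cytb.

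The highest and lowest ratios to WT of each list among genes past the filter, where not all are given above, are CPM ratios without a test. For killer lectin receptors in Mfn2, the highest ratios were Klrd1 at 1.49 and Klrc2 at 1.25, and the lowest were Klre1 at 0.653 and Klrk1 at 1.13. In Rhot1, killer lectin receptor genes were highest for Klrc2 at 1.39 and Klrd1 at 1.11, and the lowest were Klre1 at 0.809 and Klrc1 at 0.982. The tissue residency list in Mfn2 had its highest ratios in Cxcr6 at 1.58 and Runx3 at 1.03, and the lowest were Cd69 at 0.259 and Rgs1 at 0.972. Of the costimulation list, Cd7 at 1.43 and Tnfrsf9 at 1.13 were highest in Rhot1, and the lowest were Icos at 0.473 and Cd28 at 0.586. For transcription factors of CD8 differentiation in Mfn2, the highest ratios were Irf8 at 2.39 and Id2 at 1.84, and the lowest were Nfatc1 at 0.572 and Ikzf2 at 0.715. In Rhot1, genes for transcription factors of CD8 differentiation were highest for Irf8 at 1.82 and Hopx at 1.38, and the lowest were Nfatc1 at 0.647 and Zeb2 at 0.927. The chemokine receptor list in Mfn2 had its highest ratios in Cxcr6 at 1.58 and Ccr2 at 1.33, and the lowest were S1pr4 at 0.826 and Cx3cr1 at 0.910. Of the chemokine receptor list, Ccr2 at 1.21 and Cxcr3 at 1.07 were highest in Rhot1, and the lowest were Cx3cr1 at 0.526 and S1pr4 at 0.526. For cytokines in Mfn2, the highest ratios were Spp1 at 1.88 and Csf1 at 1.27, and the lowest were Ltb at 0.863 and Tgfb1 at 0.973. Spp1 (osteopontin) had a UMI in most tumour-marker cells too. In Rhot1, cytokine genes were highest for Csf1 at 1.21 and Tgfb1 at 1.14, and the lowest were Spp1 at 0.688 and Ltb at 1.05.

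The interferon-stimulated list in Mfn2 had its highest ratios in Ifit3 at 5.41 and Isg20 at 1.91, and the lowest were Zbp1 at 0.728 and Trim30a at 0.796. Of the S phase list, Fen1 at 1.91 and Hells at 1.54 were highest in Mfn2, and the lowest were Mcm7 at 0.327 and Rrm1 at 0.500. For S phase genes in Rhot1, the highest ratios were Fen1 at 2.10 and Hells at 1.83, and the lowest were Rrm1 at 0.711 and Mcm5 at 0.860. In Mfn2, G2/M phase genes were highest for Ccnb1 at 1.21 and Birc5 at 0.925, and the lowest were Hmmr at 0.172 and Top2a at 0.404. The G2/M phase list in Rhot1 had its highest ratios in Cdk1 at 2.24 and Cenpe at 1.02, and the lowest were Hmmr at 0.298 and Cenpa at 0.450.

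Of the glycolysis list, Pgam1 at 1.40 and Hk1 at 1.18 were highest in Rhot1, and the lowest were Pfkp at 0.679 and Eno1 at 0.916. For nuclear oxidative phosphorylation in Mfn2, the highest ratios were Sdha at 1.39 and Uqcrc1 at 1.33, and the lowest were Sdhc at 0.411 and Ndufv1 at 0.610. In Rhot1, nuclear oxidative phosphorylation genes were highest for Atp5g1 at 1.58 and Uqcrb at 1.37, and the lowest were Atp5a1 at 0.638 and Ndufa1 at 0.640. The mitochondrially encoded list in Mfn2 had its highest ratios in mt-Nd2 at 1.22 and mt-Cytb at 1.09, and the lowest were mt-Co1 at 0.712 and mt-Nd3 at 0.901. Of the mitochondrially encoded list, mt-Atp8 at 1.48 and mt-Nd2 at 1.30 were highest in Rhot1, and the lowest were mt-Nd3 at 0.744 and mt-Nd4 at 0.978. For mitochondrial dynamics and transport in Mfn2, the highest ratios were Fis1 at 1.18 and Dnm1l at 1.11, and the lowest was Mff at 1.00. In Rhot1, mitochondrial dynamics and transport genes were highest for Fis1 at 1.22 and Mff at 0.856.

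The cytosolic DNA sensing list in Mfn2 had its highest ratios in Ccl5 at 1.64 and Samhd1 at 0.903, and the lowest were Sting1 at 0.590 and Zbp1 at 0.728. Of the cytosolic DNA sensing list, Cxcl10 at 2.25 and Samhd1 at 1.41 were highest in Rhot1, and the lowest were Sting1 at 0.993 and Zbp1 at 1.04. For NF-kB targets in Mfn2, the highest ratios were Nfkb2 at 1.91 and Bcl2a1b at 1.71, and the lowest were Traf1 at 0.531 and Nfkbia at 0.604. In Rhot1, NF-kB target genes were highest for Nfkb1 at 1.58 and Icam1 at 1.30, and the lowest were Bcl2a1d at 0.578 and Nfkbiz at 0.742.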
